A study of Mus musculus with 360 samples.

Results

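The synaptotagmin, SNARE and exocytosis genes were followed in 360 single cells of the adult mouse cochlea, 180 from GAP animals and 180 from control animals. Members were every gene of the deposited exon matrix named as a synaptotagmin (Syt), syntaxin (Stx), vesicle-associated membrane protein (Vamp), complexin (Cplx) or Rims gene by number, with Snap23, Snap25, Snap29, Snap47 and Snap91. They came to 51 of 48440 genes: 17 synaptotagmins, 15 syntaxins, 6 Vamps, 4 complexins, 4 Rims genes and the 5 Snap genes. GAP animals were Fbxo2CreERT2::Rosa26-tdTomato::Rosa26-GAP, in which tamoxifen-activated Cre switches on the GAP allele (Gfi1, Atoh1 and Pou4f3) together with the reporter. Control animals were Fbxo2CreERT2::Rosa26-tdTomato. Both groups carried the Cre and the tdTomato reporter, received tamoxifen at 3 weeks of age and were harvested at 5 weeks, so recombination was limited to cells that had the Fbxo2-driven Cre. Cells were sorted singly into plates and sequenced by SMART-MATQ, a total-RNA method that counts unique molecular identifiers (UMIs). Titles give each cell a letter, C (92) or D (88) for GAP cells and A (91) or B (89) for control cells. Letter and genotype cannot be told apart. No label names an animal, so each genotype counted as 1 sample. No p-value is given, and all intervals are 95% intervals that cover counting error only.

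Neurotransmitter and hormone release rests on a bundle of SNARE proteins: a vesicle Vamp pairs with a syntaxin and a SNAP of the target membrane and pulls the membranes together. Synaptotagmins are vesicle membrane proteins, several of which bind calcium and trigger this fusion. Complexins clamp the assembled bundle, and Rims proteins tether vesicles beside calcium channels. Hair cells of the cochlea release glutamate at ribbon synapses with otoferlin (Otof) as the calcium sensor, in place of the synaptotagmins that serve most neurons, while supporting cells have no such synapse. The remaining syntaxins and Vamps work on the Golgi apparatus, endosomes and lysosomes of all cells.

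The GAP cells held 5366362 UMIs and the control cells 4001274 UMIs. A GAP cell had a median of 28963 UMIs (8550 to 60218) and a control cell 21280 UMIs (6985 to 55129). Atoh1 had 4322 UMIs in GAP cells and 0 in control cells, Pou4f3 had 3130 and 0, and Gfi1 had 1092 and 1. Transgene and endogenous transcripts of these 3 genes cannot be told apart in gene counts. A list of 16 hair cell markers summed to 4819 counts per 1000000 UMIs (CPM) in GAP cells and 286 CPM in control cells. The 15 supporting cell markers summed to 11676 CPM in GAP cells and 10751 CPM in control cells. The 13 neuron markers were scarce, at 16.03 CPM in GAP cells with 7 genes at 0 UMIs, including Tubb3, Nefl and Elavl4, and at 7.25 CPM in control cells with 9 genes at 0 UMIs. The 8 neuroendocrine markers summed to 72.3 CPM in GAP cells and 15.5 CPM in control cells. The median cell was at 0 in both, and the highest cell at 5323 CPM in GAP cells (letter D) and 1306 CPM in control cells (letter A). The 5 erythroid markers summed to 97.5 CPM in GAP cells and 0.25 CPM in control cells. Of those 523 GAP UMIs, 522 were in letter C and 401 in cluster 7, with 1 cell at 24038 CPM and a median cell at 0. Their part in the results was not tested. The Schwann and satellite glia list summed to 845 CPM in GAP cells and 1574 CPM in control cells, and the leukocyte list to 6.34 CPM and 13.2 CPM. In summed counts, fewer cells with a transcript and fewer transcripts per cell cannot be told apart, so shares of cells are given too.

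Promoter windows from the RefSeq table (GRCm38.p6) are shown for 4 of the 8 members past 2-fold with at least 10 CPM in a genotype. The genes are a pair higher in GAP cells (Syt14 and Cplx2) and a pair lower (Snap91 and Vamp5). Each window is clear of its gene's annotated exons. No window is shown for Syt13, Syt7 and Stx8, also past 2-fold. Each is the 250 bases before the RefSeq start, written 5′ to 3′ on the gene's strand. Capitals mark CAGCTG or CAGATG, 2 spellings of the E-box, the motif class bound by basic helix-loop-helix factors such as Atoh1. CAGATG may stand on either strand and then reads CATCTG, while CAGCTG is the same on both. Syt14 lies at chr1:193035776-193036025 (minus strand), Cplx2 at chr13:54302306-54302555 (plus strand), Snap91 at chr9:86880709-86880958 (minus strand) and Vamp5 at chr6:72380469-72380718 (minus strand). The RefSeq start of Cplx2 is an upstream one, 68793 bases before the first exon of the gene in GENCODE M21.
Syt14: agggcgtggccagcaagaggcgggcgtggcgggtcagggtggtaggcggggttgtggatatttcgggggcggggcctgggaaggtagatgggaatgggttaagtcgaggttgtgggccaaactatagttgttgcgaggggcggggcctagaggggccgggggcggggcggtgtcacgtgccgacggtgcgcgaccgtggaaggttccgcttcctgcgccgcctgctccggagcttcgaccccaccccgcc
Cplx2: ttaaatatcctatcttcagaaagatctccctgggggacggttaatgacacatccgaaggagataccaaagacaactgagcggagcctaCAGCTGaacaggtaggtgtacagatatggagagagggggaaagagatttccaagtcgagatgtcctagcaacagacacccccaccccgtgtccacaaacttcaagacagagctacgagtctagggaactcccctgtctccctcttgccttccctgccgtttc
Snap91: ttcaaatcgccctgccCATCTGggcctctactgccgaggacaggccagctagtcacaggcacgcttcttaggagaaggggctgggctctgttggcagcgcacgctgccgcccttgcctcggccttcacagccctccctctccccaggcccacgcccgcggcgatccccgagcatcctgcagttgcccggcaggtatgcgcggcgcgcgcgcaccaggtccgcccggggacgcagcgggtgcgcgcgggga
Vamp5: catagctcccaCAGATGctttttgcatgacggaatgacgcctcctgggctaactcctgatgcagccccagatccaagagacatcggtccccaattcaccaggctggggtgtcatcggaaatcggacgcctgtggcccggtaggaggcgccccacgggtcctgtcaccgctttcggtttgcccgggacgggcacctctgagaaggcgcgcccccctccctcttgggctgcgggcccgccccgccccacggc
The Syt14 window, of a gene higher in GAP cells, held neither spelling. The Cplx2 window held CAGCTG 162 bases before the start. The windows of Snap91 and Vamp5, genes lower in GAP cells, held CAGATG 234 and 239 bases before the start. CAGCTG was found in 14 of 49 windows of the members (28.6%) and in 13% of all 32851 windows of this length. The 14 windows belong to 11 of the 38 members with a window. Of those 11, Cplx2 alone was past 2-fold with at least 10 CPM in a genotype. Syt6 (log2 ratio 2.64) and Syt1 (−1.09) were past 2-fold but under 10 CPM in both genotypes, and Cplx3 and Syt16 had 0 UMIs. CAGATG was found in 4 of the 49 windows (8.16%) and in 14.4% of all windows. A match of letters is a description and no binding site.

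Of the 51 members, 28 reached 10 CPM in a genotype, 23 did not, and 6 of those (Cplx3, Rims1, Stx19, Syt16, Syt8 and Vamp3) had 0 UMIs in all 360 cells. For such a gene, no expression and no counting in this matrix cannot be told apart. Vamp7 is not among the members found in the matrix, so Vamp sums and shares leave it out. Among the 28, 5 were at least 2-fold higher in GAP cells (Syt13, Syt14, Cplx2, Syt7 and Stx8), where 13% of the 10152 genes at this level were. Another 3 were at least 2-fold lower, among them Snap91 and Vamp5, where 6.61% of all genes were. The other 20 lay within 2-fold. Syt13, Syt14 and Syt7 were under 10 CPM in control cells and entered the count of 5 only through GAP cells. The fold was read from log2 ratios with 1 CPM added to both levels. The members' median log2 ratio was 0.12, beside 0.10 for all genes. All 8 kept their direction when each GAP letter was set against each control letter (4 pairings), as 12.4% (higher) and 6.12% (lower) of all genes did. Near the 2-fold bound were Stx8 at 1.15 and Vamp5 at −1.17 inside it, and Stx3 at −0.99 and Syt9 at 0.82 outside. All members together summed to 1806 CPM in GAP cells and 1740 CPM in control cells.

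Among the synaptotagmins, the largest differences in level between the genotypes were those of Syt13 and Syt14. The summed level of the 8 calcium-binding synaptotagmins was also higher, at 48.5 CPM in GAP cells (42.7 to 54.7) and 19.99 CPM in control cells (15.9 to 24.9). By letter, the intervals of D (35.7 CPM, 28.6 to 44.1) and A (29.7 CPM, 22.6 to 38.4) overlapped, and those of the other pairings did not. Of the 260 GAP UMIs, 70 were Syt7, 41 Syt5 and 28 Syt6, found in 14, 5 and 5 cells. Syt1 and Syt10 were lower in GAP cells, so the sum does not describe every gene of the group. Syt13, an atypical synaptotagmin that does not bind calcium (chr2:92915098-92956058, GRCm38), had 0 to 66 UMIs per GAP cell with a median of 2, against 0 to 7 UMIs per control cell with a median of 0. It was at 166 and 135 CPM in letters C and D, against 4.03 and 10.4 CPM in letters A and B. The letters of the genotypes did not overlap. Pooled, Syt13 averaged 152 CPM over the GAP cells (142 to 163) and 7.25 CPM in control cells (4.85 to 10.4), 20.98-fold higher in GAP cells (14.5 to 31.5). It was found in 58.9% of GAP cells (51.3 to 66.1%) and 5% of control cells (2.31 to 9.28%). After thinning every cell to 8000 UMIs these shares were 40.6% of GAP cells and 2.82% of control cells.

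Syt14, another synaptotagmin without calcium binding (chr1:192891233-193035775), was carried by fewer cells. It had 0 to 32 UMIs per GAP cell and 0 to 6 UMIs per control cell, with medians of 0 in both. Its levels were 66.5 and 57.5 CPM in letters C and D, against 4.54 and 6.44 CPM in letters A and B. Pooled, it was at 62.4 CPM in GAP cells and 5.498 CPM in control cells, 11.4-fold higher in GAP cells (7.38 to 18.4). It was found in 28.3% of GAP cells and 3.33% of control cells, or 15% and 2.26% after thinning. Of the 106 GAP cells with Syt13, 40 also held Syt14, and 11 GAP cells held Syt14 alone of the pair.

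Syt7, a calcium sensor of slow release, was a rare transcript. It was at 13.04 CPM in GAP cells and 1.999 CPM in control cells, 6.52-fold higher in GAP cells (3.13 to 15.7), with 14 GAP cells and 2 control cells holding all of its UMIs. Of its 70 UMIs in GAP cells, 39 lay in 4 of the 17 GAP cells to which the authors gave no cluster. These 17 cells had 42346 to 60218 UMIs, and GAP cells with a cluster at most 44672. Without them the log2 ratio of Syt7 was 1.40 in place of 2.23.

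The synaptotagmins of fast neuronal release had few UMIs in both genotypes. Syt1, the main calcium sensor of central synapses, had 11 UMIs in 2 GAP cells and 22 UMIs in 7 control cells. Syt2, which serves that role in fast auditory brainstem synapses, had 13 UMIs in 5 GAP cells and 4 UMIs in 1 control cell. Syt9, another calcium-binding synaptotagmin, was at 10.4 CPM in GAP cells and 5.498 CPM in control cells, 1.90-fold higher in GAP cells (1.14 to 3.26). Syt11, a synaptotagmin of vesicle recycling that does not bind calcium, was at 34.1 CPM in GAP cells and 30.5 CPM in control cells (ratio 1.12, 0.88 to 1.42). Of the calcium-binding Syt3 and Syt10, Syt3 had 30 UMIs in GAP cells and 5 UMIs in control cells, and Syt10 had 11 UMIs and 19 UMIs.

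Syt17, Syt5 and Syt6 had UMIs in GAP cells and 0 in control cells, which allows up to 0.75 CPM there. Syt17 was spread over 19 GAP cells, with 48 UMIs and at most 6 in a cell. It was at 8.53 and 9.44 CPM in letters C and D, and at least 9.33-fold higher in GAP cells by the lower limit of its ratio interval. Syt5 and Syt6 each came from 5 cells: 1 cell held 19 of the 41 Syt5 UMIs, and 1 cell held 24 of the 28 Syt6 UMIs. All 28 Syt6 UMIs were in letter C, and Syt5 had 12.6 CPM in letter C and 1.64 CPM in letter D. Syt12, Syt15 and Syt4 had 0 to 5 UMIs in either genotype.

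**Figure D1:**
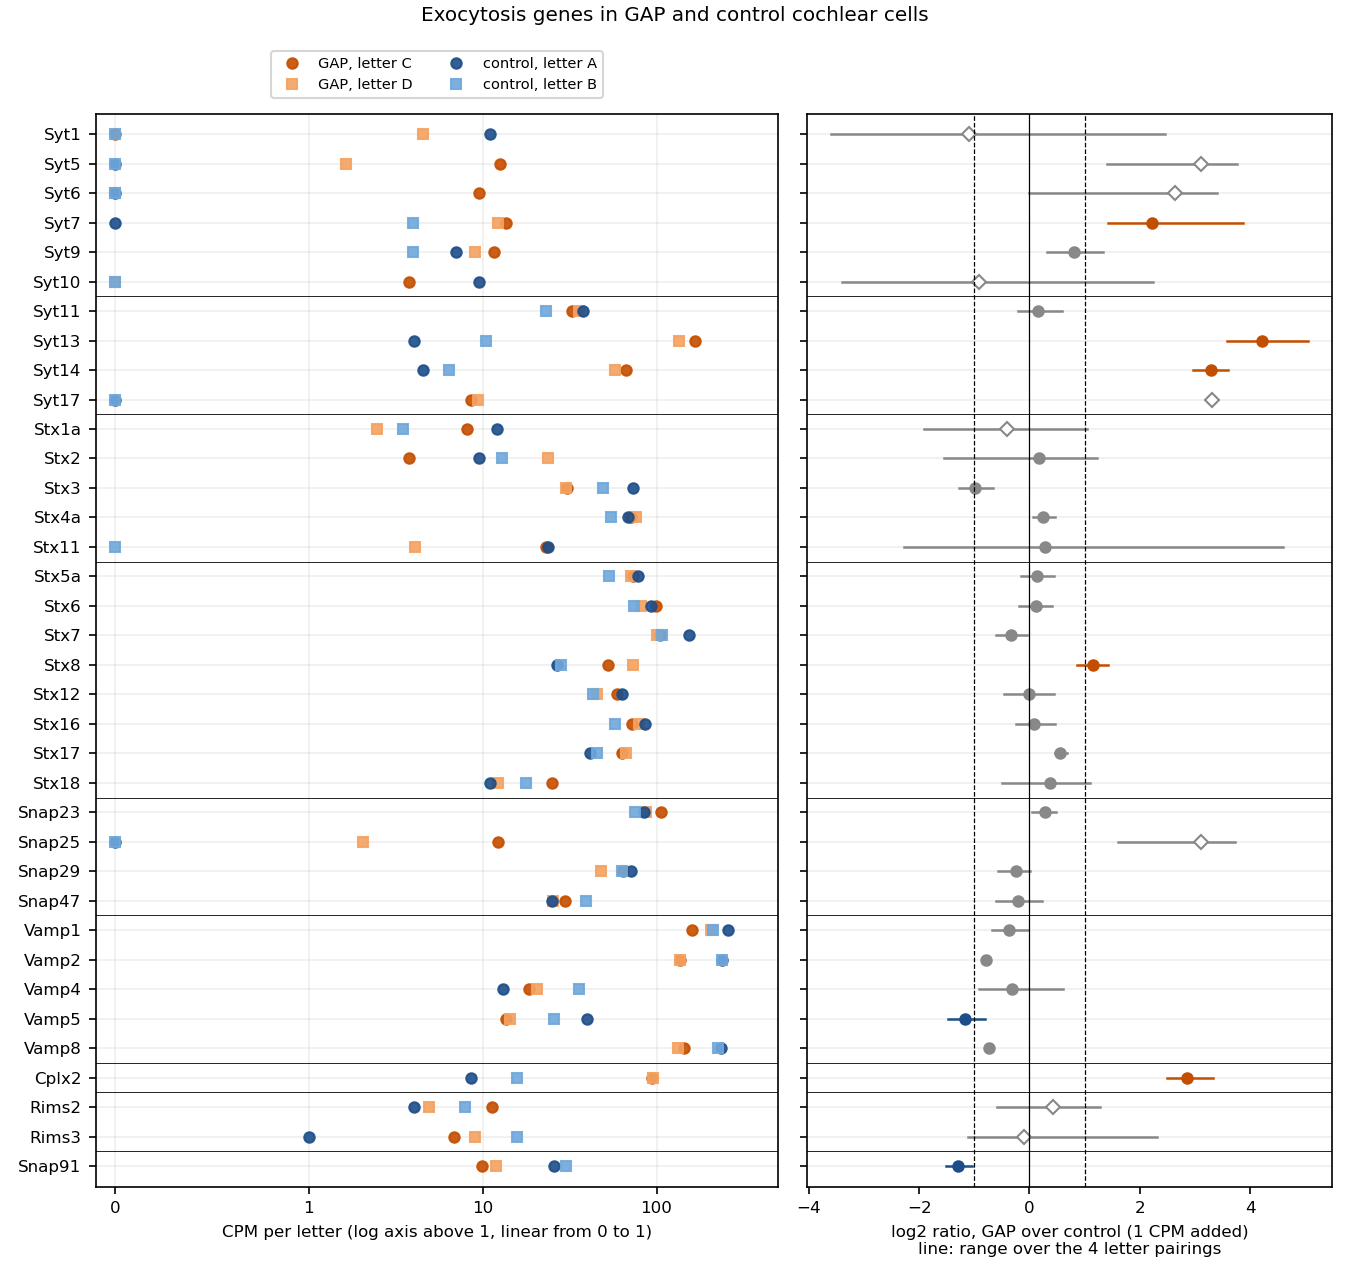
Levels of the named members by letter on a log axis in CPM, with the log2 ratio of GAP over control cells beside them. Letters C and D are GAP cells and letters A and B control cells, lines span the 4 pairings of letters, colour marks a pooled 2-fold difference, and open diamonds mark members under 10 CPM in both genotypes. Syt13 stands at 135 and 166 CPM in the GAP letters and at 4.03 and 10.4 CPM in the control letters, while Vamp2 stands lower in both GAP letters.

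Cplx2 was the one complexin at 10 CPM or more. Complexin 2 (chr13:54371349-54383917) is a clamp and activator of the SNARE bundle found in central neurons and endocrine cells. It had 0 to 43 UMIs per GAP cell with a median of 1, against 0 to 10 UMIs per control cell with a median of 0. The letters were at 93.8 and 95.6 CPM for GAP cells and at 8.57 and 15.9 CPM for control cells, without overlap. Cplx2 was 7.73-fold higher in GAP cells (5.76 to 10.6), at 94.7 CPM in GAP cells and 12.2 CPM in control cells. It was found in 52.2% of GAP cells and 9.44% of control cells, or 33.9% and 6.78% after thinning. Cplx1 had 10 UMIs in GAP cells and 4 in control cells, Cplx4 had 0 and 1, and Cplx3, the complexin of retinal ribbon synapses, had none.

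Rims genes were near the detection limit. Rims2, a vesicle tether of the active zone that also serves hair cell ribbon synapses, was at 8.39 CPM in GAP cells and 5.998 CPM in control cells (ratio 1.40, 0.83 to 2.40). Rims3, a short Rims protein, was at 7.83 CPM in GAP cells and 8.497 CPM in control cells, and its 2 control letters lay apart at 1.01 and 15.9 CPM. Rims4 had 2 UMIs in GAP cells and 0 in control cells.

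The SNAP genes showed the general-purpose form in both genotypes and the neuronal form in a few GAP cells. Snap25, the neuronal and neuroendocrine plasma membrane SNARE (chr2:136713453-136782428), had 41 UMIs in 13 GAP cells and none in control cells. Its level was at least 7.92-fold higher in GAP cells by the lower limit of its ratio interval. Of the 180 control cells none held it, which allows a UMI of it in up to 1.67% of cells (3 of 180) and does not limit how many express it. Letter C had 12.3 CPM and letter D 2.05 CPM of it. A single cell held 13 of the 41 UMIs, and that cell also held 34 UMIs of the neuron marker list. Together, 3 GAP cells that held a listed neuron gene carried 28 of the 41 Snap25 UMIs, and the remaining 13 UMIs lay in 10 cells without one. For Syt13 the same split gave 116 of 816 UMIs in the 19 GAP cells with a neuron marker, and 700 in the other GAP cells. For Syt14 it gave 50 of 335 UMIs and for Cplx2 75 of 508. A UMI of the neuroendocrine list was found in 60 GAP cells, a larger set than the 19 with a neuron marker, so the parts of the 2 sets are not alike. These 60 cells held 409 of 816 UMIs for Syt13, 206 of 335 for Syt14, 218 of 508 for Cplx2 and 35 of 41 for Snap25. The part of these transcripts in the results was not tested.

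Snap23, which takes the place of Snap25 in most other tissues, was at 97.3 CPM in GAP cells and 79.7 CPM in control cells (ratio 1.22, 1.059 to 1.41). Snap29, a SNAP of endosomes and autophagosomes, was at 56.6 CPM in GAP cells and 67.5 CPM in control cells. Snap47 was at 27.8 CPM in GAP cells and 32.2 CPM in control cells. Of the Snap47 exon bases, 11.6% also belong to exons of Jmjd4, and use of strand in counting is not given in the sources used here. Per kilobase of exon, Snap23 was at 22.7 CPM and Snap25 at 1.12 CPM in GAP cells.

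Plasma membrane syntaxins were lower or similar in GAP cells, and none was 2-fold higher. Stx3, the syntaxin of photoreceptor ribbon synapses and of apical membranes, was at 30.4 CPM in GAP cells and 61.2 CPM in control cells, or 2.02-fold lower in GAP cells (1.65 to 2.47). Stx4a, the general plasma membrane syntaxin, was at 73.4 CPM in GAP cells and 61.5 CPM in control cells. Stx1a was at 5.59 CPM in GAP cells and 7.75 CPM in control cells. Stx2 was at 12.9 CPM in GAP cells and 11.2 CPM in control cells, but letters C and D lay at 3.75 and 23.8 CPM. Stx11, a syntaxin best known from cytotoxic granule release in lymphocytes, was at 14.5 CPM in GAP cells and 11.7 CPM in control cells, and its letters lay between 0 and 23.7 CPM.

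The syntaxins of internal membranes were all measured, and 7 of the 8 lay within 2-fold. The exception was Stx8, a SNARE of late endosomes (chr11:67966193-68207148). Stx8 had 0 to 12 UMIs per GAP cell with a median of 1, against 0 to 10 per control cell with a median of 0. Letters C and D had 52.6 and 73.5 CPM, against 26.7 and 28.3 CPM in letters A and B, 2.26-fold higher in GAP cells (1.81 to 2.83). It was found in 53.3% of GAP cells and 27.2% of control cells, or 30% and 16.9% after thinning. Stx17, the autophagosome syntaxin, came next at 64.7 CPM in GAP cells and 43.5 CPM in control cells (ratio 1.49, 1.24 to 1.79). Stx7, the late endosomal partner of Stx8, was at 103 CPM in GAP cells and 130 CPM in control cells. Stx6, Stx16, Stx5a, Stx12 and Stx18, of the Golgi apparatus, endosomes and endoplasmic reticulum, had ratios between 0.999 and 1.32. Of the Stx18 exon bases, 32.3% overlap exons of Nsg1 and Gm42858.

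The 6 Vamps of the matrix, without Vamp7 and with Vamp3 at 0 UMIs, were together lower in GAP cells. They summed to 490 CPM (472 to 510) against 758 CPM (732 to 786) in control cells. Vamp2, the vesicle SNARE of neuronal release, had 0 to 18 UMIs per GAP cell and 0 to 30 per control cell with a median of 4 in each. Both GAP letters had 137 CPM, against 237 CPM in letter A and 239 CPM in letter B. The ratio corresponds to 1.73-fold lower in GAP cells (1.57 to 1.91). Vamp8, an endosomal and secretory granule Vamp, was at 138 CPM in GAP cells and 229 CPM in control cells, or 1.66-fold lower in GAP cells (1.503 to 1.83). Vamp1, the close relative of Vamp2, was at 182 CPM in GAP cells and 234 CPM in control cells, or 1.29-fold lower in GAP cells (1.18 to 1.41).

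Vamp5, a myobrevin first described in muscle (chr6:72368794-72380468), was at 13.98 CPM in GAP cells and 32.7 CPM in control cells, or 2.34-fold lower in GAP cells (1.75 to 3.15). It had 0 to 7 UMIs per GAP cell and 0 to 14 per control cell, and the letters were at 13.7 and 14.4 CPM for GAP cells and 39.8 and 25.8 CPM for control cells. Vamp4, of the Golgi apparatus, was at 19.4 CPM in GAP cells and 24.5 CPM in control cells. Snap91, a clathrin adaptor that retrieves Vamp2 during endocytosis and is no SNARE (chr9:86765923-86880654), was at 10.8 CPM in GAP cells and 27.99 CPM in control cells, or 2.59-fold lower in GAP cells (1.87 to 3.62). Its letters were at 9.90 and 11.9 CPM for GAP cells and 25.7 and 30.2 CPM for control cells. Against the 100 control cells outside the authors' WT Cells 1 cluster its log2 ratio was −0.49. Against those 100 cells, 6 of 28 members were at least 2-fold higher (Stx18 besides the 5 above), where 12.9% of all genes were, and 2 were lower (Stx3 and Vamp5), where 7.35% were.

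By share of cells, 10 of the 37 named members were found in at least 2 times as large a share of GAP cells as of control cells, where 23.8% of all 12884 genes under the naming rule were. After thinning to 8000 UMIs they were 11 of 37, where 19.8% of all genes were. The 10 were Syt13, Syt14, Cplx2, Syt7, Syt17, Syt5, Syt6, Snap25, Stx2 and Stx11. Of these, Syt17, Syt5, Syt6 and Snap25 were under 10 CPM in both genotypes and had 0 control UMIs. They were named through GAP cells alone, so the naming rule fixed their place in this count. A GAP cell held a median of 13 members and a control cell 9, or 8 and 7 after thinning. The gap in this count was therefore 4 members before thinning and 1 after.

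**Figure D2:**
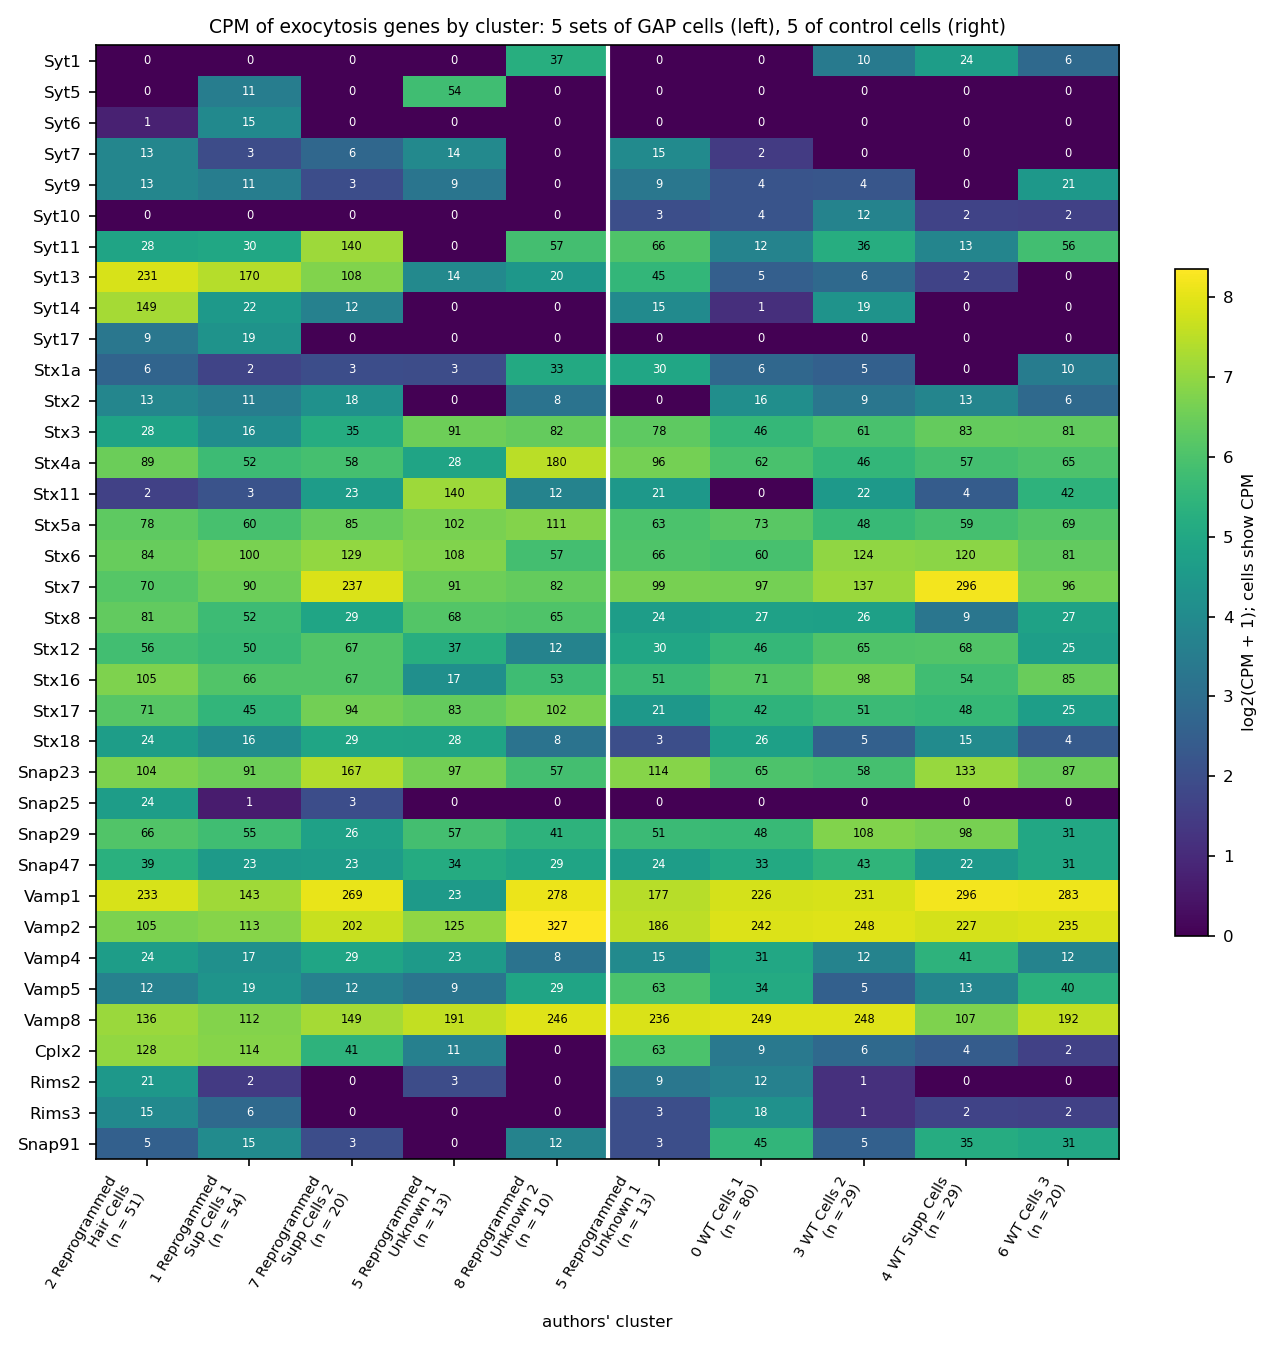
Level of each named member, as CPM printed in each field and log2(CPM + 1) as colour, in the authors' clusters with at least 10 cells, GAP cells left of control cells. Syt13 and Cplx2 are high in GAP cells of clusters 1 and 2, Syt14 in cluster 2, Stx11 in cluster 5 and Snap91 in control cells of cluster 0.

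The authors' annotation splits the GAP cells into clusters, and the members were not spread evenly over them. The cluster the authors named Reprogrammed Hair Cells (cluster 2, 51 GAP cells) had more Otof than the cluster spelled Reprogammed Sup Cells 1 (cluster 1, 54 GAP cells), at 266 CPM and 86.8 CPM. It also had more Myo7a, at 452 CPM and 128 CPM, and Slc17a8 at 29.8 CPM and 0.56 CPM. The whole hair cell list nevertheless summed to 4680 CPM in cluster 2 and 7085 CPM in cluster 1, where Ccer2 alone gave 4659 CPM. The clusters came from the same counts, so the differences between them are descriptions.

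Among the clusters with at least 10 cells, cluster 2 had the highest levels of Syt13, Syt14, Cplx2, Snap25 and Rims2, but not of Syt7, Syt17, Rims3 or Vamp2. Against all control cells, 8 of 31 members at 10 CPM were at least 2-fold higher, where 16.5% of all genes were, and 6 were at least 2-fold lower, where 12.2% were. Of the higher ones, Syt13, Syt14, Syt7, Syt9, Snap25 and Rims2 were under 10 CPM in control cells. They entered this count only through their level in cluster 2. Of the lower ones, Snap91 and Stx11 entered only through control cells. Syt13 was at 231 CPM in cluster 2 (206 to 257) and 170 CPM in cluster 1 (151 to 190), and was found in 37 of 51 and 37 of 54 cells. Syt14 was at 149 CPM in cluster 2 and 21.98 CPM in cluster 1, 6.77-fold higher in cluster 2 (4.80 to 9.79). In cluster 2 its letters were at 196 CPM (C) and 118 CPM (D), and in cluster 1 at 29.5 CPM (C) and 13.3 CPM (D). Cplx2 was nearly level between them, at 128 CPM in cluster 2 and 114 CPM in cluster 1.

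Between clusters 2 and 1, 5 of 33 members were at least 2-fold higher in cluster 2 (Syt14, Syt7, Snap25, Rims2 and Rims3), where 11.6% of all genes were, and 3 were lower (Syt5, Syt6 and Snap91), where 8.97% were. Of these, Syt14 alone reached 10 CPM in both clusters. The others entered these counts only through the cluster where they were higher. Snap25 had 35 UMIs in 7 cells of cluster 2 and 1 UMI in cluster 1. Rims2 was at 20.8 CPM in cluster 2 and 1.69 CPM in cluster 1, but 17 of its 30 UMIs in cluster 2 came from 1 cell, which also held 21 UMIs of neuron markers. Rims3 was at 14.5 CPM in cluster 2 and 6.20 CPM in cluster 1, but its direction turned with the letter: it was at 27.96 CPM in cluster 2 and 2.11 CPM in cluster 1 in letter C, and at 5.73 CPM and 10.9 CPM in letter D. The other 7 kept their direction in letter C. In letter D, Syt6 had 0 UMIs in both clusters and Syt5 had 0 and 1 UMI. Snap91 was at 4.85 CPM in cluster 2 and 15.2 CPM in cluster 1. Of the 51 cells of cluster 2, 27 held a UMI of the neuroendocrine list, and these carried 151 of its 215 Syt14 UMIs and 34 of its 35 Snap25 UMIs. The part of neuron and neuroendocrine transcripts in these levels was not tested.

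Cluster 1 had 6 of 30 members at least 2-fold higher than control cells (Syt13, Cplx2, Syt14, Syt17, Syt5 and Syt6), where 13.2% of all genes were, and 5 lower, among them Stx3, Stx11, Vamp2 and Vamp8, where 11.7% were. Syt17, Syt5 and Syt6 had 0 control UMIs and entered this count only through their level in cluster 1. Syt17 was at 8.999 CPM in cluster 2 and 18.6 CPM in cluster 1, with 33 of its 48 UMIs in 11 cells of cluster 1. Stx3 was at 27.7 CPM in cluster 2 and 15.8 CPM in cluster 1, the 2 lowest levels among the clusters with at least 10 cells. Vamp2 was at 105 CPM in cluster 2 and 113 CPM in cluster 1, and in the control clusters it lay between 186 and 248 CPM.

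**Figure D3:**
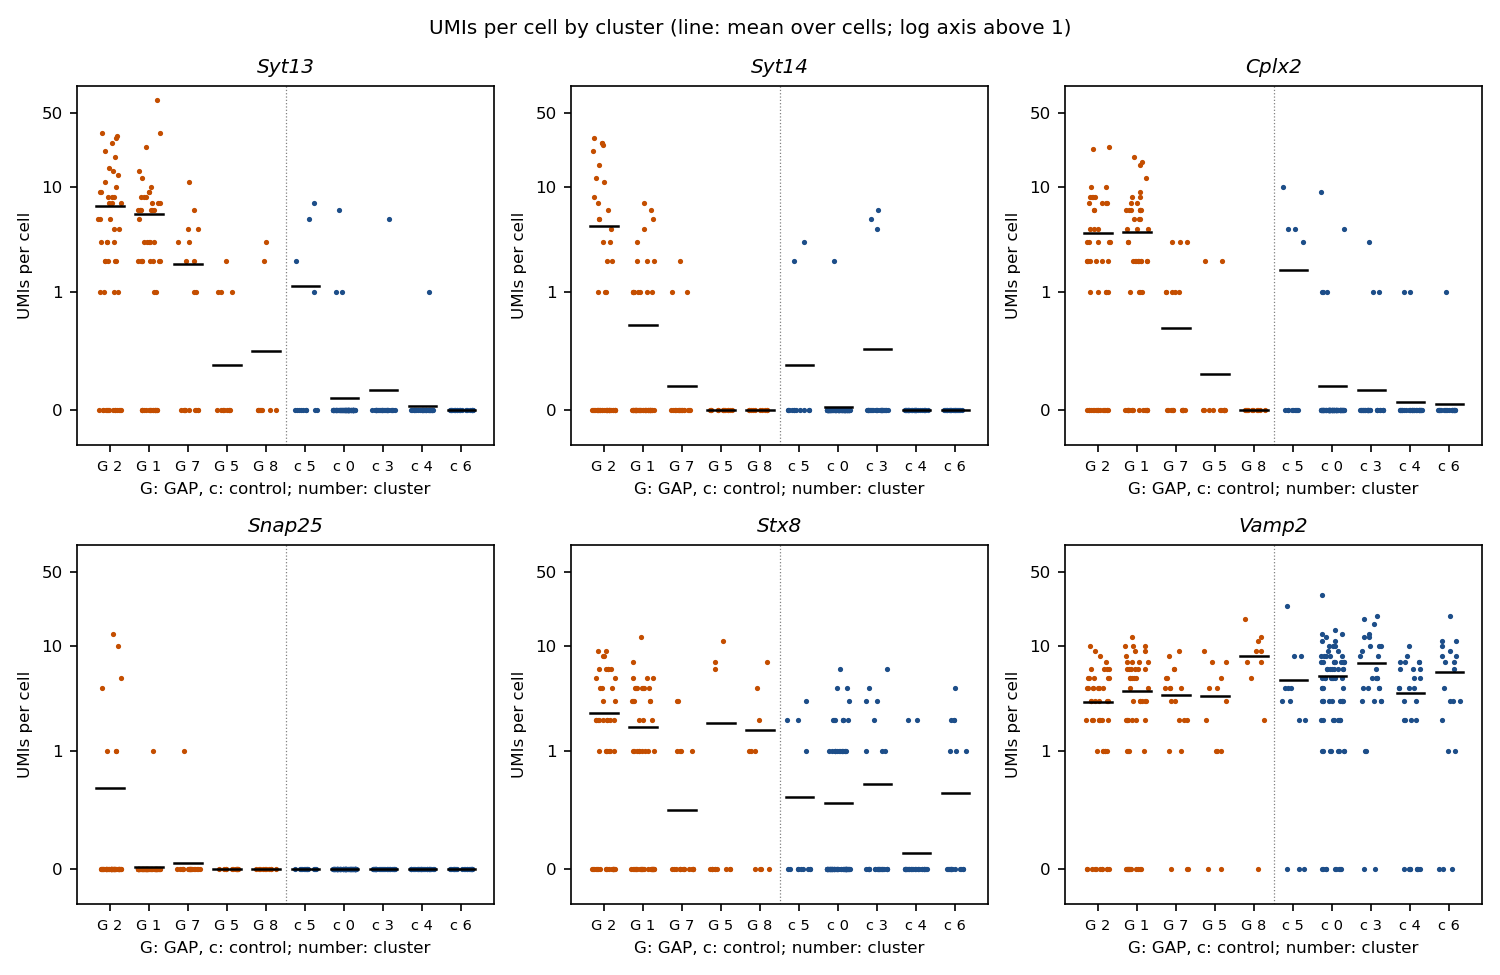
UMIs per cell of key members in the authors' clusters with at least 10 cells, 1 point per cell, with the mean as a line and the axis logarithmic above 1 UMI. Most cells hold few UMIs of any member, and the highest cell for Syt13, at 66 UMIs, is a GAP cell of cluster 1.

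The smaller GAP clusters had other leading members. Cluster 7, named Reprogrammed Supp Cells 2 (20 GAP cells), had Syt11 at 140 CPM and Syt13 at 108 CPM, against 13.1 CPM and 2.18 CPM in the 29 control cells named WT Supp Cells (cluster 4). The 48 Syt11 UMIs came from 5 cells, and 19 of them from 1 cell. In this comparison 6 of 27 members were at least 2-fold higher, where 22.6% of all genes were, and 5 lower, where 17.7% were. Stx7 was high in both, at 237 CPM in cluster 7 and 296 CPM in cluster 4.

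Cluster 5, named Reprogrammed Unknown 1, held 13 GAP cells and 13 control cells. Stx11 was at 140 CPM in its GAP cells (103 to 184), in 7 of the 13, and at 20.9 CPM in its control cells. All 49 of these GAP UMIs were in letter C, which gave 11 of the 13 cells. The leukocyte list summed to 56.9 CPM in the GAP cells, with 6 of 8 genes at 0 UMIs, and 8.98 CPM in the control cells, with 7 at 0. The supporting cell list summed to 2790 CPM in the GAP cells and 12286 CPM in the control cells. The part of either list was not tested. Syt13, Cplx2 and Syt11 ran the other way: Syt13 was at 14.2 CPM in GAP cells and 44.9 CPM in control cells, Cplx2 at 11.4 CPM and 62.8 CPM, and Syt11 had 0 and 22 UMIs. In this comparison 5 of 27 members were at least 2-fold higher, where 24.4% of all genes were, and 9 lower, where 26% were. Those 13 control cells held 15 of the 29 Syt13 UMIs and 21 of the 49 Cplx2 UMIs of all control cells. Set against the control cells outside cluster 5, the log2 ratio was 4.99 in place of 4.21 for Syt13 and 3.47 in place of 2.85 for Cplx2. Cluster 8, named Reprogrammed Unknown 2 (10 GAP cells), had Vamp2 at 327 CPM, the highest of any cluster with at least 10 cells, and all of its 9 Syt1 UMIs in 1 cell.

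Control cells of cluster 0 (WT Cells 1, 80 cells) had Snap91 at 44.8 CPM, Rims3 at 17.7 CPM and Rims2 at 11.8 CPM. The other control clusters had Snap91 between 2.99 and 34.9 CPM. The neuron list summed to 10.6 CPM in cluster 0, with 11 of its 13 genes at 0 UMIs.

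Leadership within a family changed for the synaptotagmins. Gene counts of exons cannot separate splice isoforms, so a switch is described here between paralogs, as a new leading gene or a change of at least 10 percentage points in a gene's share of its family. Syt13 made up 49.5% of the 1650 synaptotagmin UMIs of GAP cells and 11.3% of the 256 of control cells. Syt11 made up 11.1% in GAP cells and led with 47.7% in control cells, while its CPM level differed little. Syt14 made up 20.3% in GAP cells and 8.59% in control cells. Per kilobase of exon, Syt13 held 61.1% in GAP cells and 13.9% in control cells, and Syt14, with 11.9 kb of exon, held 7.91% and 3.32%. The lead of Syt13 in GAP cells and of Syt11 in control cells was seen in each letter but not in every cluster of at least 10 cells. Syt11 led in GAP clusters 7 (51.6%) and 8 (45.2%), Syt5 in GAP cluster 5 (54.3%) and Syt1 in control cluster 4 (57.9%). Per kilobase, Syt13 led in cluster 7 with 48.6%. These leads rest on few UMIs. GAP cluster 5 had 35 synaptotagmin UMIs, of which 19 were Syt5 in a single cell. Control cluster 4 had 19, of which 11 were Syt1, all in letter A.

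In the other families the lead was shared or depended on length. Among plasma membrane syntaxins Stx4a led in both genotypes, with 47.5% of UMIs in GAP cells and 31.9% in control cells, while Stx3 had 19.6% and 31.7% and led in letter A with 33.1%. Among SNAPs Snap23 led by UMIs in both genotypes, with 51.4% and 44.4%, but per kilobase Snap29 led in control cells with 38.9%. Among Vamps Vamp1 led by UMIs in GAP cells with 37.01% and Vamp2 in control cells with 31.3%, but per kilobase Vamp8 led in both, with 48.7% and 49.1%. Among Rims genes Rims2 led by UMIs in GAP cells with 50.6% and Rims3 in control cells with 58.6%, but per kilobase Rims3 led in both. Cplx2 made up 98.1% of complexin UMIs in GAP cells and 90.7% in control cells.

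**Figure D4:**
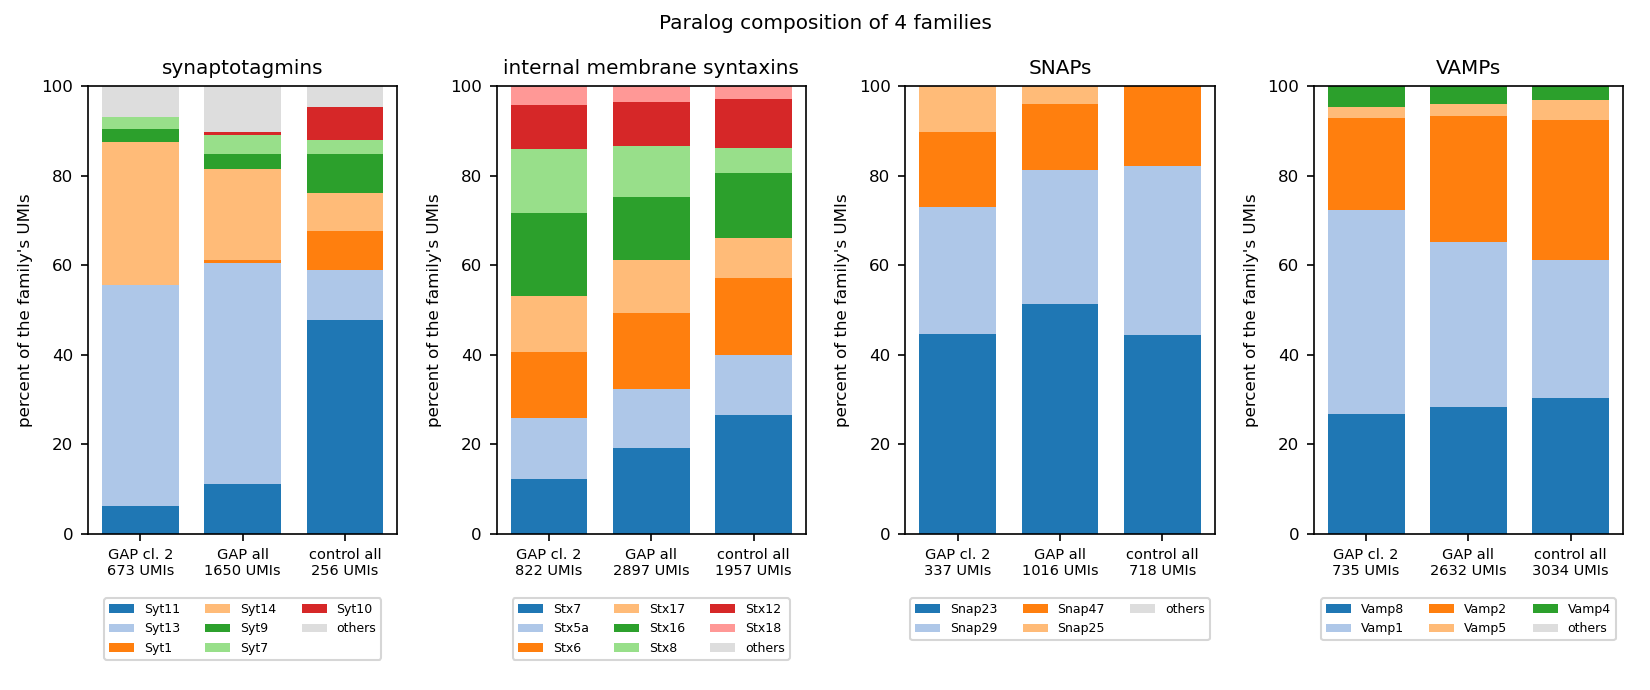
Share of each family's UMIs, in percent, held by each paralog of 4 families in GAP cells of cluster 2, all GAP cells and all control cells. In the synaptotagmins Syt13 holds 49.5% in GAP cells and 11.3% in control cells, and Syt11 holds 11.1% and 47.7%.

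Of 104 other exocytosis genes (regulators of SNAREs, active zone and vesicle proteins, tethers and endocytic proteins), 72 reached 10 CPM in a genotype. At least 2-fold higher in GAP cells were 11 of them (15.3%, beside 13% of all genes), and 4 were lower (5.56%, beside 6.61%), with a median log2 ratio of 0.06. Otof, the hair cell calcium sensor, had 659 UMIs in GAP cells and 0 in control cells. By the lower limit of its ratio interval, it was at least 133-fold higher in GAP cells. It was found in 38.9% of GAP cells. Of the 70 GAP cells with Otof, 55 also held Syt13, 41 Cplx2, 28 Syt14 and 6 Snap25. Apba1, a presynaptic adaptor protein, had 463 UMIs in GAP cells and 0 in control cells. Pclo, the active zone scaffold piccolo, was at 370 CPM in GAP cells and 98.0 CPM in control cells, 3.78-fold higher in GAP cells (3.39 to 4.22).

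Stxbp2, a syntaxin-binding protein of epithelia and granulocytes, was at 176 CPM in GAP cells and 177 CPM in control cells. Pacsin1, an endocytic protein, was at 50.5 CPM in GAP cells and 19.2 CPM in control cells, and Syn3, a synapsin, was at 65.2 CPM and 29.5 CPM. Lower in GAP cells were Sytl2, a synaptotagmin-like Rab27 effector, at 87.02 CPM in GAP cells and 545 CPM in control cells, 6.26-fold lower, and Lin7a, a scaffold protein, at 29.6 CPM and 62.2 CPM. The remaining genes of the list with most UMIs, Anxa2, Cltc, Use1, Rab27b and Stxbp4, had ratios between 0.744 and 1.17.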

How the data were processed

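The authors deposited a matrix of exon UMI counts per gene and cell and a table giving 341 of the 360 cells 1 of 9 clusters. Per the submitters' processing notes, STAR, HTSeq and mm10 were used. Versions, annotation, UMI collapsing and strand setting were not given in the sources used here. Counts of a set's cells were added up and scaled to CPM. Levels have exact Poisson intervals, ratios exact conditional-binomial intervals and shares of cells exact Clopper-Pearson intervals. A count of 0 was read as up to 3 counts over the genotype. Measured genes have at least 10 CPM in either set, log2 ratios add 1 CPM to both, and the bound is 2-fold. A gene can thus be measured only through the set where it is higher, for members and for all genes alike. Thinning to 8000 UMIs left out 3 control cells and 0 GAP cells. No doublet caller was run on these singly sorted cells. Animals are not labelled, so each genotype is 1 sample and nothing was tested.

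Exon lengths and overlaps are from GENCODE M21, where all 51 members matched by gene identifier. Promoter windows are from RefSeq, with windows for 38 of the members. Members and lists were chosen with earlier results of these data known. Members are named at 10 CPM in a genotype or in a cluster of at least 10 cells, or with at least 20 UMIs of which 90% or more are in 1 genotype. Other members are given by counts. From the other exocytosis genes, those named are the 8 with most UMIs and those past 2-fold with at least 50 CPM. Computation used Python 3.11.15, numpy 2.4.6, scipy 1.17.1, pandas 2.3.3, matplotlib 3.10.9 and R 4.3.3 with edgeR 4.0.16 for TMM factors. In Poisson counts simulated for the comparison of GAP and control cells, 95.5% of the intervals of 9573 genes held the true ratio. The simulation had no variation between cells, letters or animals, so it checks the computation and not the fit of the intervals to these data. Of 200 changed genes, 98% came within 0.5 of the true log2 ratio. The alternatives are listed in the closing section. Results for some members are not reported here.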

Additional observations from a re-analysis of the deposited data

How the results depend on the processing

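Depth and the lack of labelled animals limit these results: intervals hold counting error only, and members under 10 CPM often rest on fewer than 20 cells. The alternatives were other scaling factors, a mean of per-cell CPM, thinning, each letter left out, the cell with most UMIs left out, a pseudocount of 10 CPM, other level filters and a minimum depth. Added after seeing the data were control cells outside WT Cells 1 or outside Reprogrammed Unknown 1, and GAP cells with a cluster. Cplx2, Syt13 and Syt14 stayed past 2-fold in all 14 settings, Syt7 in 13, Stx8 and Snap91 in 12 and Vamp5 in 9. The count of 5 higher members was 3 with a pseudocount of 10 CPM and 10 with no filter. The count of 3 lower members was 5 without letter C, 0 with a pseudocount of 10 CPM and 0 with a filter of 50 CPM. In the Reprogrammed Hair Cells cluster the 8 higher members were 5 without letter C, 13 without letter D, 5 without the cell with most UMIs of the gene and 5 with a pseudocount of 10 CPM. The 6 lower members were 3 with that pseudocount. The Syt13 share of synaptotagmin UMIs in GAP cells was 61.1% per kilobase, and in control cells 20.2% without letter A and 5.26% without letter B. The Syt11 share in GAP cells was 15.2% as a mean of per-cell shares and 12.9% without letter C. The direction of Syt1 turned: its log2 ratio, −1.09 over all cells, was 1.61 without letter A. Of 36 named members, 15 changed sign in a setting. Past 2-fold the other way were, besides Syt1, Syt10 (−0.91, 1.61 without letter A), Rims3 (−0.11, 2.14 without letter B), Stx11 (0.29, −1.32 without letter C) and Stx2 (0.18, −1.37 without letter D). Vamp5 was at −0.74 with the mean of per-cell CPM, and Stx8 at 0.91 without letter D. Of the other values, 556 stayed within the counting interval (within 1 on the log2 scale in the cluster) and 281 moved beyond it. Why these values moved was not tested.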

Other observations

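The 17 GAP cells without a cluster in the authors' annotation held a median of 49455 UMIs. In them Syt13 was at 151 CPM, Cplx2 at 113 CPM and Syt14 at 80.8 CPM, and Syt13 was found in 13 of the 17. Syt7 was at 45.02 CPM there, from 4 cells. Syt10 had all of its 11 GAP UMIs in 2 of these cells, and its 19 control UMIs were in letter A.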
